A study of Mus musculus with 4 samples.

Results

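The 10 genes described here encode the transcription factor NRF2 (gene Nfe2l2), its inhibitor KEAP1, and 8 well known NRF2 target genes, namely Nqo1, Hmox1, Gclc, Gclm, Txnrd1, Srxn1, Slc7a11 and Prdx1. They were set by a fixed list of gene names, drawn up with earlier results of these data known, and all 10 were measured among 13085 genes in 4 lines of differentiating 3T3-L1 cells. In sh-CACUL1 cells, 9 of the 10 were lower than in sh-Luc cells, as were 68.7% of all genes. Once the samples were rescaled to a common median ratio, 5 of the 10 were lower. Nqo1, Txnrd1 and Slc7a11 were each more than 2-fold lower there, as were 16.4% of all genes. Against FLAG cells none of these 3 was 2-fold lower, and Nqo1 was slightly higher. In FLAG-CACUL1 cells the genes moved both ways against FLAG cells, with Prdx1 2.48-fold higher and Hmox1 2.56-fold lower. Against sh-Luc cells neither of these passed 2-fold, and Hmox1 was higher.

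NRF2 is a basic leucine zipper factor whose amount is set mainly by protein degradation, so the level of Nfe2l2 mRNA is not by itself a measure of its activity. KEAP1, the substrate adaptor of a CUL3 ubiquitin ligase, holds NRF2 and marks it for the proteasome, and oxidants or electrophiles that modify KEAP1 cysteines let NRF2 accumulate. NRF2 then pairs with a small MAF protein and binds antioxidant response elements, where BACH1 can compete with it. Its targets supply glutathione, reduce quinones, degrade heme and keep thioredoxins and peroxiredoxins reduced. Much of this work consumes NADPH, which fat cells also need for fatty acid synthesis.

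The lines derive from murine 3T3-L1 preadipocytes, a fibroblast-like line that stores lipid when given adipogenic hormones. FLAG-CACUL1 cells carry a vector for FLAG-tagged CACUL1, a cullin-domain protein that associates with CDK2, and FLAG cells carry the empty vector. Both were selected with G418. A stably expressed short hairpin RNA targets CACUL1 in sh-CACUL1 and luciferase in sh-Luc, and both lines were selected with hygromycin B. All 4 lines, controls included, received rosiglitazone at 5 μM, IBMX at 0.5 mM, dexamethasone at 1 μg/ml and insulin at 5 μg/ml, and RNA was taken on day 8. The study asked how CACUL1 affects gene expression during adipogenesis. Resistant colonies were used, and whether a line stood for 1 colony or a pool is not given in the sources used here. Each line had 1 sample, so no difference below has a replicate check and no test between lines was possible.

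Expression was deposited as FPKM, a fragment count divided by transcript length and by the mapped fragments of the sample. Fold changes were taken on log2(FPKM + 1), which understates the change of low genes, and a gene was called at 2-fold or more. Intervals given in brackets are 95% exact binomial intervals of the plain FPKM ratio on the log2 scale, from estimated fragment numbers. They cover counting error only and not variation between cultures. Estimated depth was 14400000 fragments for FLAG, 14300000 for FLAG-CACUL1, 24000000 for sh-Luc and 14900000 for sh-CACUL1. The targeted gene, Cacul1, was at 9.61 FPKM in FLAG against 11.8 in FLAG-CACUL1, and at 10.2 in sh-Luc against 5.39 in sh-CACUL1. It was thus 1.9-fold lower with the hairpin (95% interval -1.13 to -0.73) and 1.23-fold higher with the expression vector (0.11 to 0.48), and whether reads from the construct enter this row is not known. With the hairpin, 23.0% of all genes had a lower log2 fold change than Cacul1. Rescaled to a common median ratio, Cacul1 was at 8.74 in sh-Luc against 6.39 in sh-CACUL1, a smaller difference.

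The labels call the cells preadipocytes. All 13 adipocyte markers were measured, but no row of any gene was at 0, so this alone says nothing about the cells. Retn was at only 0.192 FPKM in sh-Luc. The summed FPKM of the 13 markers was 8818 in FLAG against 986.9 in FLAG-CACUL1, and 1892 in sh-Luc against 18570 in sh-CACUL1. Of 13 preadipocyte and fibroblast markers, 11 were measured and summed to 8965, 12420, 6716 and 1509 FPKM in the same order, most of it from Col1a1, Col1a2, Col3a1 and Vim. Against that sum, Thy1 and Dlk1 were above sh-Luc in sh-CACUL1 (log2 fold changes of 4.41 and 4.19), and Dlk1 was lower in FLAG-CACUL1 (-1.28). The lines thus differed in the balance of these marker lists, within the pairs and also between the controls. Macrophage markers summed to between 2.91 FPKM in sh-CACUL1 and 67.93 in FLAG-CACUL1 over the 3 of 7 measured, with Lyz2 at 66.5 in FLAG-CACUL1. Cd68 was at 16.2 FPKM in FLAG and at 0.962 to 1.44 in the other lines. The single measured endothelial marker of 6, Pecam1, was at 0.0217 to 0.301 FPKM. In such bulk RNA, fewer cells of a type and less RNA per cell cannot be told apart, and the part of these markers in the results below was not tested.

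**Figure D1:**
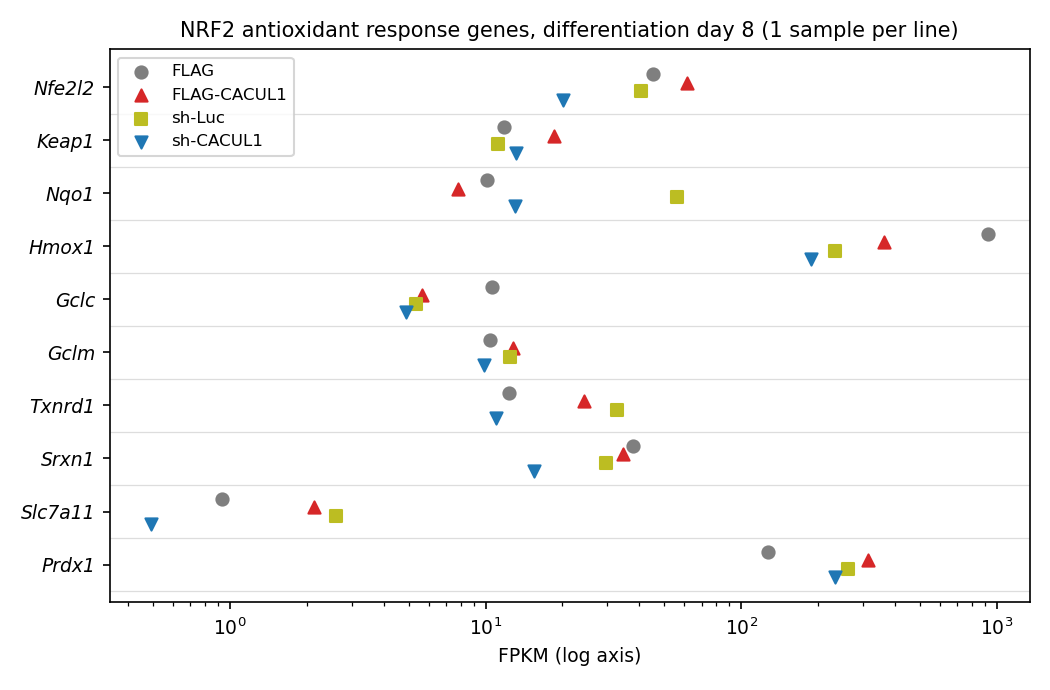
FPKM of each gene on a logarithmic axis, with 1 symbol per line and no error bars because each line had 1 sample. Nqo1 stood at 56.3 in sh-Luc and at 7.79 to 13.0 in the other lines, whereas Hmox1 was highest in FLAG at 924.

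FLAG-CACUL1 and sh-CACUL1 cells were each compared with the control of the same vector type. In FLAG-CACUL1 against FLAG, 2 of the 10 genes were called, 1 higher and 1 lower. Among all genes 14.7% were called, 7.51% higher and 7.22% lower. The median log2 fold change was 0.36 for the 10 genes and 0.09 for all genes, and 6 of the 10 were higher and 4 lower. The 10 genes therefore showed no shared direction in this comparison.

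In sh-CACUL1 against sh-Luc, 3 of the 10 were called and all 3 were lower. The background was 21.3% of all genes called, 4.94% higher and 16.4% lower. Their median was -0.60, against -0.30 for all genes, of which 68.7% were lower. Relative to that all-gene median, 7 of the 10 were below and 3 above. Because the whole distribution was shifted down, the 9 lower genes must be read against it. Under median-of-ratios scaling, which moves the all-gene median to 0.01, Hmox1, Gclc, Gclm and Prdx1 turned to the higher side at 0.16, 0.29, 0.12 and 0.31. Nqo1, Txnrd1 and Slc7a11 were still called lower, at -1.58, -1.03 and -1.02.

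**Figure D2:**
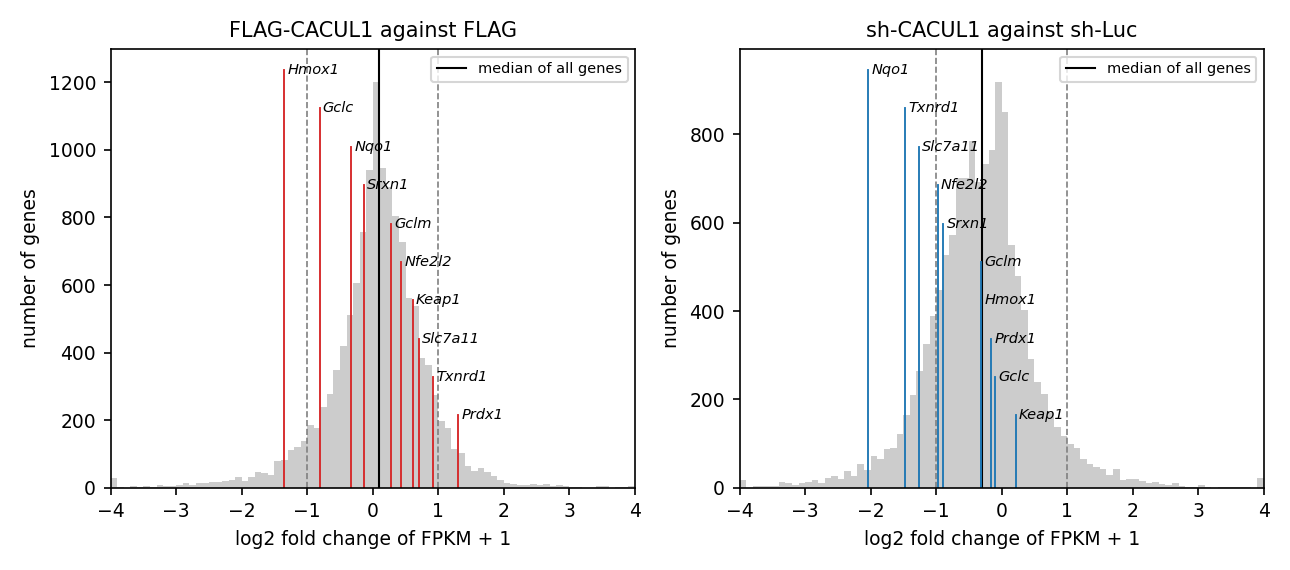
Histograms of the log2 fold change of FPKM + 1 over all 13085 genes in both comparisons, with values beyond the axis gathered in the end bins and the 10 genes marked by lines whose height has no meaning. The sh-CACUL1 distribution is centred below 0, at a median of -0.30, and Nqo1 lies at -2.04.

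Nfe2l2, Gclm, Txnrd1, Slc7a11 and Prdx1, which make 5 of 10, were higher in FLAG-CACUL1 and lower in sh-CACUL1 than in their controls, compared with 43.4% of all genes. Nqo1, Hmox1, Gclc and Srxn1 were lower in both, and Keap1 was higher in both. Under median-of-ratios scaling Gclm and Prdx1 were instead higher in both, and Hmox1 and Gclc were lower in FLAG-CACUL1 and higher in sh-CACUL1. As deposited, none of the 10 had that opposite order, which 16.1% of all genes had, and none of the 10 was called in both comparisons, beside 758 of the 13085 genes.

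Nfe2l2 (NM_010902), which encodes NRF2 itself, lies on the minus strand at chr2:75675513-75704641. Gene positions here are those of GENCODE M21 on GRCm38. It was at 45.3 FPKM in FLAG against 61.6 in FLAG-CACUL1, and at 40.4 in sh-Luc against 20.1 in sh-CACUL1. FLAG-CACUL1 was the highest line and sh-CACUL1 the lowest, and the controls were close together. The log2 fold change was 0.43 with CACUL1 overexpression (0.35 to 0.54) and -0.98 with knockdown (-1.13 to -0.89). The latter fell just short of 2-fold on the FPKM + 1 scale, and the plain ratio was 2.01-fold. With the controls exchanged the values were 0.60 and -1.14. Thus Nfe2l2 kept its direction with either control, as it did at -0.52 in sh-CACUL1 under median-of-ratios scaling. The summed preadipocyte and fibroblast markers ranked the 4 lines in the same order as Nfe2l2, although of its 11 measured genes only Ly6a, Col1a1, Col1a2 and Col3a1 did so singly.

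Keap1, the inhibitor, lies on the minus strand at chr9:21229730-21239361. It was at 11.8 FPKM in FLAG against 18.5 in FLAG-CACUL1, and at 11.2 in sh-Luc against 13.2 in sh-CACUL1. It was 1.57-fold higher in FLAG-CACUL1 (0.49 to 0.81) and 1.18-fold higher in sh-CACUL1 (0.08 to 0.38), and did not pass 2-fold in either. The highest and lowest lines differed by only 1.65-fold, the second smallest range of the 10 genes.

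Nqo1 (NM_008706), a quinone reductase and a standard readout of NRF2 activity, lies on the minus strand at chr8:107388225-107403206. It was at 10.1 FPKM in FLAG against 7.79 in FLAG-CACUL1, and at 56.3 in sh-Luc against 13.0 in sh-CACUL1. The sh-Luc line stood alone, with the other 3 lines close to each other. Nqo1 was 4.34-fold lower in sh-CACUL1 than in sh-Luc, with a log2 fold change of -2.04 (-2.30 to -1.94). Only 2.51% of all genes had a lower value. Against the other control, FLAG, sh-CACUL1 was instead 0.34 higher on the log2 scale. FLAG and sh-Luc themselves differed by -2.37, more than sh-CACUL1 differed from sh-Luc. The knockdown value of Nqo1 thus rested on the sh-Luc sample.

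Hmox1 (NM_010442), heme oxygenase 1, degrades heme to biliverdin, iron and carbon monoxide, and lies on the plus strand at chr8:75093621-75100589. It was among the most abundant transcripts in every line, above at least 97.7% of genes. It was at 924 FPKM in FLAG against 361 in FLAG-CACUL1, and at 232 in sh-Luc against 187 in sh-CACUL1. FLAG was far above the other lines. Of the 3 measured macrophage markers, Cd68 and Mrc1 were also highest in FLAG, Mrc1 at only 0.231 FPKM. Lyz2 went the other way, at 8.12 FPKM in FLAG against 66.5 in FLAG-CACUL1. The part of these markers in the Hmox1 level was not tested. Hmox1 was 2.56-fold below FLAG in FLAG-CACUL1 cells, with a log2 fold change of -1.35 (-1.39 to -1.32). Against sh-Luc, FLAG-CACUL1 was 0.63 higher, so the direction depended on the control. Knockdown gave -0.31 against sh-Luc and -2.30 against FLAG. The overexpression value of Hmox1 thus rested on the FLAG sample.

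Slc7a11, Gclc and Gclm feed glutathione synthesis. Slc7a11 (NM_011990) encodes the transport subunit of the cystine and glutamate exchanger and lies on the minus strand at chr3:49892526-50443614. It was the lowest of the 10 genes, at 0.93 FPKM in FLAG against 2.14 in FLAG-CACUL1, and at 2.60 in sh-Luc against 0.493 in sh-CACUL1. These values stood for an estimated 124, 283, 576 and 68 fragments. FLAG-CACUL1 and sh-Luc were the higher lines, and sh-CACUL1 was the lowest. In sh-CACUL1 its log2 fold change was -1.27 against sh-Luc, and the plain ratio was 5.27-fold lower (-2.78 to -2.03). In FLAG-CACUL1 it was 0.70 against FLAG, not called, with a plain ratio of 2.31-fold (0.89 to 1.52). Against FLAG, sh-CACUL1 was at -0.37, and against sh-Luc, FLAG-CACUL1 was at -0.19.

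Gclc (NM_010295) is the catalytic subunit of glutamate-cysteine ligase, the rate-limiting enzyme of glutathione synthesis, and lies on the plus strand at chr9:77754535-77794485. It was at 10.6 FPKM in FLAG against 5.63 in FLAG-CACUL1, and at 5.33 in sh-Luc against 4.88 in sh-CACUL1. FLAG alone was high. FLAG-CACUL1 lay 1.89-fold below FLAG (-1.13 to -0.70), under 2-fold. In sh-CACUL1 against sh-Luc the interval, -0.36 to 0.10, included 0. Gclm (NM_008129), the modifier subunit, lies on the plus strand at chr3:122245557-122270732. It varied least of all 10, at 10.4, 12.8, 12.5 and 9.83 FPKM, a range of 1.3-fold. The 2 subunits of this enzyme thus did not follow each other across the lines.

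Txnrd1, cytosolic thioredoxin reductase, uses NADPH to reduce thioredoxin and lies on the plus strand at chr10:82833951-82897712. It was at 12.4 FPKM in FLAG against 24.3 in FLAG-CACUL1, and at 32.6 in sh-Luc against 11.0 in sh-CACUL1. FLAG-CACUL1 and sh-Luc were high, and FLAG and sh-CACUL1 low. Txnrd1 was 2.95-fold lower in sh-CACUL1 than in sh-Luc, with a log2 fold change of -1.48 (-1.70 to -1.43). In FLAG-CACUL1 it was 0.92 higher than in FLAG (0.83 to 1.12), just under 2-fold. Exchanging the controls gave -0.15 and -0.41, so neither value was near 2-fold against the other control.

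Srxn1 (NM_029688), sulfiredoxin, restores overoxidized peroxiredoxins, and lies on the plus strand at chr2:152105516-152111376. It was at 37.9 FPKM in FLAG against 34.5 in FLAG-CACUL1, and at 29.5 in sh-Luc against 15.5 in sh-CACUL1. Only sh-CACUL1 stood apart, 1.91-fold below sh-Luc (-1.06 to -0.80) and 2.45-fold below FLAG. In FLAG-CACUL1 the log2 fold change was -0.13 (-0.24 to -0.03). Srxn1 had the pattern closest to Nfe2l2 among the 10 genes, with a root mean square difference of 0.214 in centred log2(FPKM + 1) over the 4 samples.

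Prdx1 (NM_011034), an abundant peroxiredoxin that removes hydrogen peroxide, lies on the plus strand at chr4:116685544-116700822. It was at 127 FPKM in FLAG against 314 in FLAG-CACUL1, and at 261 in sh-Luc against 233 in sh-CACUL1. FLAG was the low line. Prdx1 was 2.48-fold above FLAG in FLAG-CACUL1 cells, with a log2 fold change of 1.30 (1.26 to 1.36), but 0.27 against sh-Luc. Knockdown gave -0.16 against sh-Luc and 0.88 against FLAG. Of its stretches of 31 bases, 17.8% also occur in other annotated genes, so its level is less certain than that of the other 9, which shared at most 2.34%.

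**Figure D3:**
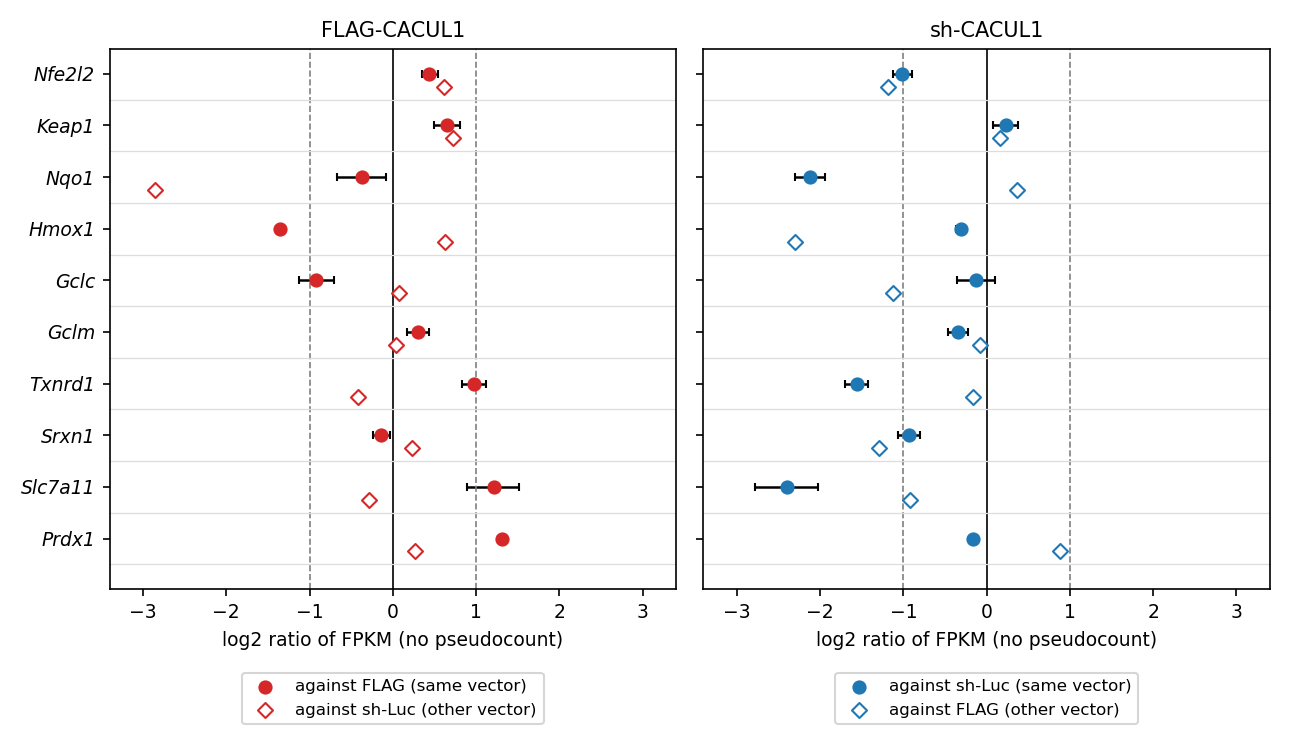
Plain log2 FPKM ratios of FLAG-CACUL1 (left) and sh-CACUL1 (right), as filled circles against the control of the same vector with 95% counting intervals and as open diamonds against the other control. Between the controls Hmox1, Gclc, Txnrd1, Srxn1 and Slc7a11 changed sign in FLAG-CACUL1, as did Nqo1 and Prdx1 in sh-CACUL1, and dashed lines mark 2-fold.

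The controls, which share no vector, were also compared with each other. In FLAG against sh-Luc, 4 of the 10 genes were called, 1 higher and 3 lower, where 21% of all genes were, 8.58% higher and 12.4% lower. Hmox1 was higher in FLAG at a log2 fold change of 1.99, and Nqo1, Txnrd1 and Prdx1 were lower at -2.37, -1.33 and -1.03. Under median-of-ratios scaling Prdx1 was at -0.74 and no longer called, and Gclc was called at 1.13. With controls exchanged, 1 of 10 was called in FLAG-CACUL1 against sh-Luc, Nqo1, which was lower, where 9.9% of all genes were called, 5.04% higher and 4.87% lower. In sh-CACUL1 against FLAG the 3 called were Nfe2l2, Hmox1 and Srxn1, all lower, where 22.9% of all genes were called, 7.45% higher and 15.4% lower. These comparisons share samples with those above and are not independent of them. Vector type and selection drug differed together between the controls, so their parts cannot be told apart.

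The promoters are shown because NRF2 acts through a short DNA element and because some of the target genes were called together. RefSeq windows on GRCm38.p6, running from 250 bases before a transcription start to 50 after it, were on hand for 8 of the 10 genes, all but Hmox1 and Gclc. They were searched on both strands for the antioxidant response element core TGACNNNGC and for the AP-1 element TGAGTCA, whose complement is TGACTCA. A second form of the core, TGAGNNNGC, was added after the windows had been seen. The 250 bases before the start of 5 genes are given 5′ to 3′ on the gene's strand, with each match on either strand in capitals. Nqo1 and Txnrd1 were called lower in sh-CACUL1 together with Slc7a11, Prdx1 was called higher in FLAG-CACUL1, and Srxn1 had most matches. The windows are chr8:107403206-107403455 (minus), chr10:82858956-82859205 (plus, 1 of 3 Txnrd1 starts), chr3:50443614-50443863 (minus), chr4:116685349-116685598 (plus) and chr2:152105274-152105523 (plus).
Nqo1: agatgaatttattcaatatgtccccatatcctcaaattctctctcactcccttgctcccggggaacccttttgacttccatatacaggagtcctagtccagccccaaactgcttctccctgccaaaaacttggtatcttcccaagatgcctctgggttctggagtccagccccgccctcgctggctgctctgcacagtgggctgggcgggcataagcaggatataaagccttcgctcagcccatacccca
Txnrd1: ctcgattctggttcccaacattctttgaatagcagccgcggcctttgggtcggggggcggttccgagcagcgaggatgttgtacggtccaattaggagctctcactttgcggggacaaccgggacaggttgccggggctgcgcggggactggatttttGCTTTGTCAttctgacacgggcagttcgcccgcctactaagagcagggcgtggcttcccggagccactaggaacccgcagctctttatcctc
Slc7a11: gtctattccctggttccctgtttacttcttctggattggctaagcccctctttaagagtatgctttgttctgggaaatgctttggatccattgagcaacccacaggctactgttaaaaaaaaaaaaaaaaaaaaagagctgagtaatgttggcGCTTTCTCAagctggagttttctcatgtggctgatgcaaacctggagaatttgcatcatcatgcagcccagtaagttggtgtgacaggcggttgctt
Prdx1: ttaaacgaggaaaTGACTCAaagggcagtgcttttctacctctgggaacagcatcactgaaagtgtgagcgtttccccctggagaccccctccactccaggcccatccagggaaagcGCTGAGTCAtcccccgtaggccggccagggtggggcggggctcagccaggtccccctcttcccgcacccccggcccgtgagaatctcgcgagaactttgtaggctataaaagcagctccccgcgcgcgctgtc
Srxn1: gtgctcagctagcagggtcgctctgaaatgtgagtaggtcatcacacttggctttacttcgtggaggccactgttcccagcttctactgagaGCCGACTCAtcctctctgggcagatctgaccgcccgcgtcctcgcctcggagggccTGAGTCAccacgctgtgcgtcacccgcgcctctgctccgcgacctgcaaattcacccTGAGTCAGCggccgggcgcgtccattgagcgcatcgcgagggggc

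The core TGACNNNGC was found in 5 of the 8 genes, Nfe2l2, Gclm, Prdx1, Srxn1 and Txnrd1, compared with 14.0% of 27025 genes in the table. For Txnrd1 the match was in the window printed, and its other 2 windows held none. In Nfe2l2 the site TGACTCCGC began 240 bases before the start, and in Gclm the site began 134 bases before it. In Prdx1 the match on the opposite strand overlapped an AP-1 element. In Srxn1 the core lay after the start and outside the bases printed, and the printed stretch held AP-1 elements 102 and 45 bases before the start. TGAGTCA was found in these 2 genes, Prdx1 and Srxn1, and in 5.95% of all genes. Counting either form of the core brought the number to 6 of 8, by adding Slc7a11, compared with 30.8% of all genes. Nqo1 and Keap1 had no match in their windows. Gclm, whose levels ranged least over the lines, had a match, and Nqo1, whose levels ranged most, had none in this window. A match is only a run of letters, binding was not measured, and elements outside these windows were not looked for.

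Further genes of the pathway were taken from 8 lists of 109 genes, of which 99 were measured. In FLAG-CACUL1 against FLAG 25 of the 99 were called, 10 higher and 15 lower, beside 14.7% of all genes, and the median of the 99 was 0.03 against 0.09 for all genes. In sh-CACUL1 against sh-Luc 28 were called, 11 higher and 17 lower, beside 21.3% of all genes, with a median of -0.15 against -0.30. That split turned with the scaling, to 23 higher and 3 lower under median-of-ratios scaling and 20 higher and 8 lower under quantile normalization. In FLAG-CACUL1 the same settings gave 9 higher and 21 lower, and 9 higher and 16 lower. The 3 lower calls in sh-CACUL1 left under median-of-ratios scaling were Bach1, Prdx6 and Trim16. Against FLAG, as deposited, sh-CACUL1 was at -0.92, -0.29 and 0.59 for these genes, none of them called. With the controls exchanged, 8 were higher and 11 lower in FLAG-CACUL1, beside 9.9% of all genes called. In sh-CACUL1 the numbers were 17 and 24, beside 22.9%. Maff, Prdx5 and Cbr1 in FLAG-CACUL1 were called lower against FLAG but higher against sh-Luc. The list counts below stand beside 7.51% of all genes called higher and 7.22% lower in FLAG-CACUL1, and 4.94% and 16.4% in sh-CACUL1.

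Among regulators and partners of NRF2, 16 of 17 were measured. Rbx1, the RING subunit of cullin ligases, was called higher in FLAG-CACUL1, at 53.6 FPKM against 19.1, and Maff, a small MAF protein, lower, at 7.13 against 32.3. Both depended on the control. Rbx1 was at 53.7 FPKM in sh-Luc, level with FLAG-CACUL1. Maff was at 1.81 FPKM in sh-Luc, against which FLAG-CACUL1 was called higher at 1.53. In sh-CACUL1 3 of the 16 were called, all lower, beside 16.4% of all genes called lower. Of these 3 only Bach1 stayed called under median-of-ratios scaling, at -1.35. Bach1, the repressor at antioxidant response elements, was at 3.82 FPKM in sh-CACUL1 against 15.3 in sh-Luc, or -1.76 as log2 fold change. Sqstm1, the autophagy receptor p62 that binds KEAP1, was at 135 against 337 (-1.31), or -0.84 under median-of-ratios scaling. The third was the small MAF gene Mafk at -1.26, or -0.88 under that scaling. Nfe2l2, whose product binds the same elements as BACH1, was at -0.98 in this comparison. Against FLAG, sh-CACUL1 was called lower for Sqstm1 at -1.49 and for Mafk and Nfe2l2 at -1.14 each, but not for Bach1 at -0.92.

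Of 18 genes of glutathione synthesis, use and recycling, 14 were measured, with 3 higher and none lower in FLAG-CACUL1 and 1 higher and 2 lower in sh-CACUL1. Ggt5, a gamma-glutamyl transferase family member, was at 0.883 FPKM in FLAG against 7.28 in FLAG-CACUL1, and at 13.3 in sh-Luc against 5.34 in sh-CACUL1. It was called in both comparisons, at 2.14 and -1.17. Both signs turned with the controls exchanged, to -0.79 in FLAG-CACUL1 and 1.75 in sh-CACUL1. Gpx8, an endoplasmic reticulum peroxidase, was higher in FLAG-CACUL1 at 1.39, with 96.1 FPKM against 35.9 in FLAG. It was at 98.8 FPKM in sh-Luc, against which FLAG-CACUL1 was at -0.04. Slc3a2, which pairs with Slc7a11 in the cystine exchanger, was at 117 FPKM in FLAG against 105 in FLAG-CACUL1, and at 120 in sh-Luc against 54.9 in sh-CACUL1. It was called lower in sh-CACUL1 (-1.11), as Slc7a11 was, but stood at -0.65 under median-of-ratios scaling. Against FLAG, sh-CACUL1 was called lower for Slc3a2 at -1.07 but not for Slc7a11 at -0.37. Glrx5, a mitochondrial glutaredoxin of iron-sulfur cluster assembly, was called higher there at 1.12.

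All 10 thioredoxins, peroxiredoxins and thioredoxin regulators were measured, with 1 higher and 2 lower in each comparison. Prdx6, a peroxiredoxin that also has phospholipase activity, was at 29.8 FPKM in FLAG against 79.3 in FLAG-CACUL1, and at 130 in sh-Luc against 24.2 in sh-CACUL1. The lines stood in the same order for Txnrd1, and Prdx6 was called in both comparisons, at 1.38 and -2.38. With the controls exchanged, Prdx6 was at -0.71 in FLAG-CACUL1 and -0.29 in sh-CACUL1. Txnip, the thioredoxin inhibitor, was lower in both, at -1.96 and -1.27. Mitochondrial Prdx3 was higher in sh-CACUL1, at 118 FPKM against 34.6 (1.74), and Prdx5 was lower in FLAG-CACUL1 at -1.22. Members of the peroxiredoxin family thus moved in different directions in the same line.

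Glutathione S-transferases, which conjugate electrophiles to glutathione, had 18 of 22 members measured, with 1 higher and 2 lower in FLAG-CACUL1 and 4 higher and 3 lower in sh-CACUL1. The microsomal Mgst3 was at 290 FPKM in FLAG against 71.1 in FLAG-CACUL1, and at 176 in sh-Luc against 441 in sh-CACUL1, and was called in both comparisons with opposite signs (-2.01 and 1.32). Mgst1 was at 905 FPKM in sh-CACUL1 and 296 in sh-Luc (1.61). Gsta4 was higher in FLAG-CACUL1, at 37.3 FPKM against 13.6, and Mgst2 lower at -1.79. Both depended on the control, since against sh-Luc FLAG-CACUL1 was at -0.73 for Gsta4 and -0.17 for Mgst2, neither called. Gsta3, at 3.61 FPKM or less in each line, was higher in sh-CACUL1 at 1.79, and Gsto1 and Gstm2 were lower there at -1.19 and -1.06, which became -0.72 and -0.60 under median-of-ratios scaling. Gstp1 and Gstp2 share most of their sequence, and their levels cannot be assigned with certainty.

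Other NRF2-inducible detoxification genes, all 22 measured, had 2 higher and 7 lower in FLAG-CACUL1 and 3 higher and 5 lower in sh-CACUL1. The carbonyl reductases Cbr1, Cbr2 and Cbr3 were called lower in FLAG-CACUL1 and higher in sh-CACUL1. Cbr1 was at 118 FPKM in FLAG against 24.4 in FLAG-CACUL1, and at 0.262 in sh-Luc against 46.2 in sh-CACUL1, and the sh-Luc value stood for an estimated 8 fragments. Cbr3 was at 40.2, 17.6, 15.2 and 102 FPKM in that order. Against FLAG, sh-CACUL1 was at -1.33 for Cbr1, -0.23 for Cbr2 and 1.32 for Cbr3, so the 3 had no shared direction with that control. Trim16, a tripartite motif protein, was at 0.337, 3.57, 8.91 and 1.01 FPKM and was called higher in FLAG-CACUL1 (1.77) and lower in sh-CACUL1 (-2.30). Its signs also turned with the controls exchanged, to -1.12 and 0.59. Aldh3a1, an aldehyde dehydrogenase, was at 0.14, 1.46, 29.6 and 12.9 FPKM, so that both hairpin lines lay above both FLAG lines. Ugdh, which makes UDP-glucuronate, was lower in sh-CACUL1 at -1.16, or -0.70 under median-of-ratios scaling. The stress cytokine Gdf15 was lower in FLAG-CACUL1 at -2.03, from 5.50 to 0.592 FPKM, the latter an estimated 13 fragments. It was at 0.479 FPKM in sh-Luc, against which FLAG-CACUL1 was at 0.11.

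NADPH-supplying enzymes had 13 of 14 members measured. In FLAG-CACUL1 none was called higher and 3 lower, beside 7.22% of all genes called lower. In sh-CACUL1 2 were called higher and none lower, beside 4.94% of all genes called higher. Me2, the mitochondrial malic enzyme, was at 15.8 FPKM in FLAG-CACUL1 and 91.9 in FLAG (-2.47). The folate enzyme Aldh1l1 was at 2.95 FPKM in FLAG and 0.023 in FLAG-CACUL1, the latter an estimated 1 fragment, and was called lower. Against sh-Luc none of the 3 lower genes was called in FLAG-CACUL1, with Me2 at 0.66 and Aldh1l1 at -0.01. Taldo1 of the pentose phosphate pathway was at 159 FPKM in sh-CACUL1 and 56.0 in sh-Luc (1.49). The cytosolic malic enzyme Me1, which supplies NADPH for lipid synthesis, was at 54.2 and 25.2 FPKM (1.08). Against FLAG, sh-CACUL1 was at 0.50 for Taldo1 and 0.70 for Me1, and these were not called. The summed adipocyte markers were also lower in FLAG-CACUL1 and higher in sh-CACUL1 than in their controls, and a link to the NADPH genes was not tested.

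Both ferritin subunits, which store iron, were measured, and Fth1 was called in both comparisons. It was at 4664.6 FPKM in FLAG against 12208.2 in FLAG-CACUL1, and at 7807.7 in sh-Luc against 3751.1 in sh-CACUL1. The log2 fold changes were 1.39 and -1.06, and the latter was -0.58 under median-of-ratios scaling. Against sh-Luc, Fth1 in FLAG-CACUL1 was at 0.64, and against FLAG, Fth1 in sh-CACUL1 was at -0.31, neither called. Ftl1 was at 0.94 in FLAG-CACUL1 and -0.79 in sh-CACUL1, not called. With the controls exchanged Ftl1 was called, at 1.2 and -1.06. Of its stretches of 31 bases, 85.4% also occur in other annotated genes, so its level is uncertain. Among the 4 superoxide dismutase and catalase genes, only Sod3, the extracellular enzyme, was called against the same-vector control in the values as deposited. It was at 36.1, 132, 182 and 69.6 FPKM in the same order. The log2 fold changes were 1.84 and -1.37, and -0.45 and 0.93 with the controls exchanged. The value of -1.37 became -0.90 under median-of-ratios scaling. Under that scaling the cytosolic Sod1 was called lower in FLAG-CACUL1 at -1.12. Sod1 and the mitochondrial Sod2 were then called higher in sh-CACUL1, where Sod2 was at 1.43. As deposited, Sod2 was called higher against sh-Luc in FLAG-CACUL1 at 1.84 and in FLAG at 1.21.

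**Figure D4:**
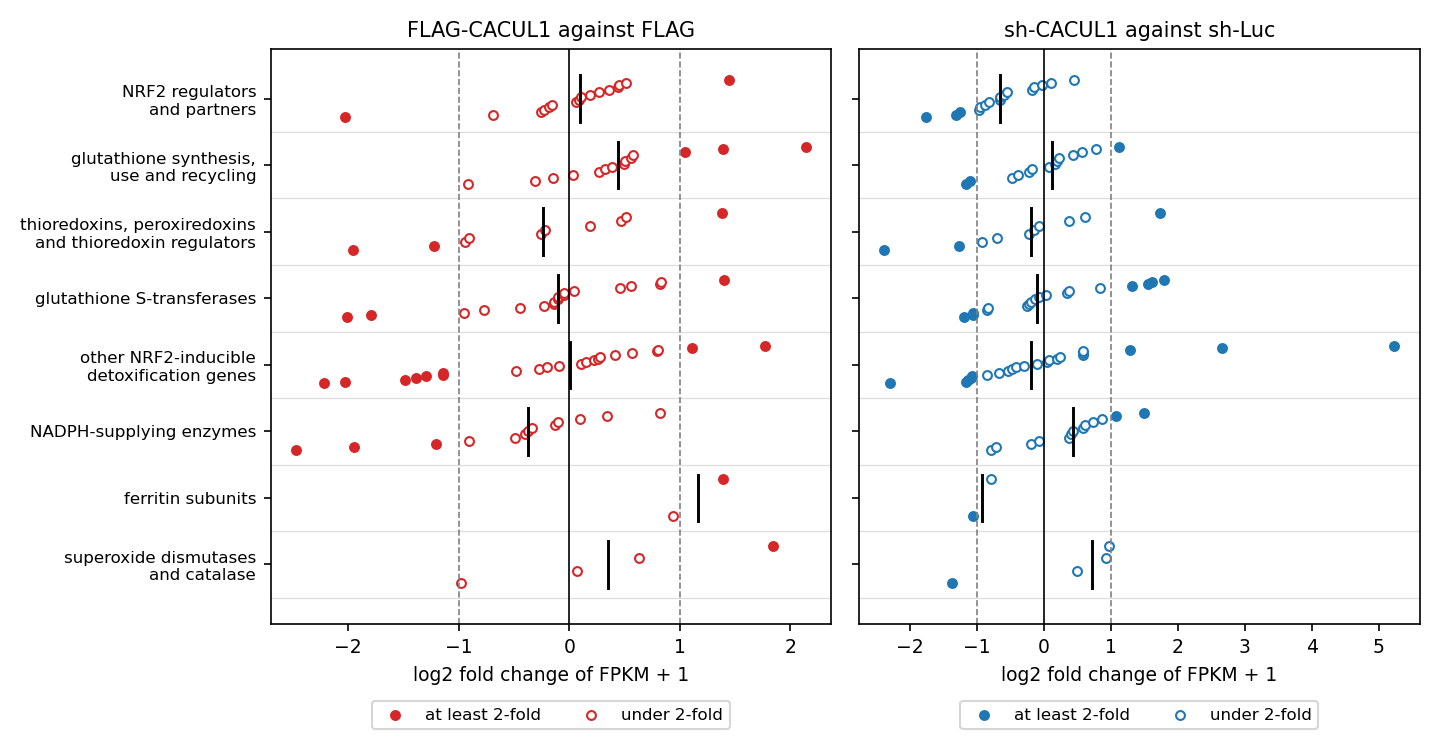
Log2 fold change of FPKM + 1 of the 99 measured pathway genes, by list, in FLAG-CACUL1 against FLAG (left) and sh-CACUL1 against sh-Luc (right), each point 1 gene and each bar the list median. Filled points passed 2-fold, and every list with more than 2 genes has points on both sides of 0 in both comparisons.

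Among the 9563 genes that reached 1 FPKM in every sample, the pattern most like that of Nfe2l2 was that of Tlr4, a receptor for lipopolysaccharide, with a root mean square difference of 0.0231 in centred log2(FPKM + 1). Tlr4 was at 5.79 FPKM in FLAG against 7.82 in FLAG-CACUL1, and at 5.06 in sh-Luc against 2.06 in sh-CACUL1. Arhgap17 and Adam17 came next, at 0.0506 and 0.0517. For Nqo1 the nearest were Pimreg, Pcdhga10 and Nrg1, at 0.128, 0.210 and 0.235, each highest in sh-Luc. The nearest of the 10 genes to Nqo1 was Txnrd1 at 0.848. With 4 samples and this many genes, close matches are common, and the likeness is a description only.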

How the data were processed

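Total RNA of 4 stable 3T3-L1 lines, 1 sample each, was sequenced as mRNA libraries by a company. The authors deposited FPKM values for 13110 rows of RefSeq transcripts per sample. The submitters' processing notes name the build mm10. The aligner, the FPKM program and any scaling between samples are not given in the sources used here. No row was at 0 in any sample, and 9563 genes reached 1 FPKM in all 4.

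Rows were matched to symbols by RefSeq identifier in GENCODE M21 and summed per symbol, which left 13085 genes. No symbol was found for 196 rows and several for 8. Fold changes used a pseudocount of 1 FPKM and a threshold of 2-fold. Depth was estimated from the spacing of low FPKM values in single-transcript rows of at least 3000 bases, of which 63.7% to 72.1% lay within 0.15 of a whole step, too few to recover reads. Gene lists and members were chosen with earlier results of these data known. Besides all members, up to 2 highest and 2 lowest called genes per list and comparison with at least 1 FPKM in 1 of the samples compared were named, and the 3 genes most like Nfe2l2 and Nqo1. Mafk, Cbr2 and the uncalled examples were named after their values were seen. Scripts were tested on simulated data. Python 3.11.15, numpy 2.4.6, scipy 1.17.1, pandas 2.3.3 and matplotlib 3.10.9 were used.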

Additional observations from a re-analysis of the deposited data

How the results depend on the processing

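No paired analysis was possible because each line had 1 sample, and for the same reason none could be left out. At 1.5-fold, 6 of the 10 genes were called in FLAG-CACUL1 against 5 in sh-CACUL1, beside 34.3% and 44.4% of all genes. At 3-fold the numbers were 0 and 1, beside 5.07% and 7.15%. For the 99 related genes the counts were 40 and 54 at 1.5-fold, and 11 and 8 at 3-fold, with the same all-gene shares. In FLAG against sh-Luc 2 of the 10 passed 3-fold, beside 7.6% of all genes. With sh-Luc as control 1 of the 10 was called in FLAG-CACUL1. Exchanging the controls turned Hmox1 in FLAG-CACUL1 to 0.63 and Nqo1 in sh-CACUL1 to 0.34, both on the log2 scale. It also changed the sign of uncalled values, namely Gclc (0.07), Txnrd1 (-0.41), Srxn1 (0.22) and Slc7a11 (-0.19) in FLAG-CACUL1 and Prdx1 (0.88) in sh-CACUL1.

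A pseudocount of 0.1 or none added Slc7a11 to the calls in FLAG-CACUL1 and Nfe2l2 to those in sh-CACUL1. A filter at 1 FPKM in both samples removed Slc7a11 in sh-CACUL1. Each of the 10 genes has 1 row, so taking the highest row in place of the sum tests nothing for them. Of their 30 fold changes in the 3 comparisons, median-of-ratios scaling moved 22 and quantile normalization 13 beyond counting error. Depth limits Slc7a11 most, with an estimated 68 fragments in sh-CACUL1.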

Other observations

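The empty FLAG vector line and the luciferase hairpin line, neither of which alters CACUL1, also differed in the wider pathway. In FLAG against sh-Luc, 30 of the 99 related genes were called, 16 higher and 14 lower, beside 8.58% of all genes higher and 12.4% lower. Under median-of-ratios scaling the split was 21 higher and 12 lower, and under quantile normalization 19 and 14. The genes named next were chosen after their values were seen. The mitochondrial malic enzyme Me2 was at 91.9 FPKM in FLAG and 9.57 in sh-Luc, and the peroxiredoxin Prdx5 at 761 and 130. The glutathione S-transferase Gstt1 was at 1.08 FPKM in FLAG and 1.02 in FLAG-CACUL1 but at 22.5 in sh-Luc and 12.1 in sh-CACUL1, so the vector types stood apart while neither pair passed 2-fold. The stress-induced regulator Sesn1 was at 5.52, 7.86, 29.5 and 15.6 FPKM in that order, again with both hairpin lines above both FLAG lines.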
